A study of Fragaria x ananassa with 6 samples.

Results

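The DELLA genes gene30958 and gene06210 and the gibberellin 2-oxidase gene gene31337 were followed in ripe strawberry receptacles in which FaPRE1 had been targeted by RNAi. The 3 genes were picked by identifier, from the 35116 gene names printed on the array, and no measured value entered the rule. The study's gene descriptions call gene30958 a DELLA GAI-like protein, gene06210 a DELLA GAIP-B protein and gene31337 a gibberellin 2-oxidase 1-like enzyme. The study had put all 3 on its lists of changed genes from these same samples, so their direction is not independent evidence of a change in the gibberellin pathway.

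Gibberellins are growth hormones that act by removing DELLA proteins. DELLA proteins belong to the GRAS family of nuclear regulators and hold back growth, and when gibberellin binds its receptor GID1, an F-box protein of the GID2 type marks them for breakdown. The hormone level is set by synthesis, whose last steps are made by gibberellin 20-oxidases and 3-oxidases, and by gibberellin 2-oxidases, which turn active gibberellins or their precursors into inactive forms. In Arabidopsis, transcripts of 2-oxidases are raised by gibberellin and those of 3-oxidases are raised when DELLA proteins build up. PRE proteins, to which FaPRE1 belongs, are small HLH proteins that cannot bind DNA, and the first of them in Arabidopsis was found through its effect on gibberellin-deficient growth. Arrays measure transcripts and not DELLA protein or hormone.

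The RNAi fruits of cultivated strawberry (Fragaria x ananassa, cv. Elsanta per the study's methods) carried the FaPRE1-RNAi construct in the vector pFRN, brought in by injecting Agrobacterium tumefaciens into fruit still on the plant. The strain is AGL0 in the labels and AGL1 in the methods. The control fruits were injected in the same way with Agrobacterium holding the empty pFRN vector. By that account both groups carried the bacterium and the vector backbone. A supplementary caption of the study instead calls the control receptacles of the array data non-transgenic. There were 3 samples of FaPRE1-RNAi receptacles and 3 samples of control receptacles, and the study describes pools of several fruits with the achenes, the seed-like true fruits on the surface, taken off before RNA extraction. Silencing was transient and the injected fruits were not a stable line, so a sample mixes cells that received the construct with cells that did not. The genotype label of the RNAi samples reads overexpressing, but the groups follow the titles, sources and descriptions, which give the RNAi construct. The extraction label speaks of floral buds while every other label speaks of fruit. The samples were hybridised on 3 arrays of 2 dyes, each with 1 RNAi sample and 1 control sample of the same replicate number. On the array of replicate 2 the RNAi sample carried Cy5, and on the other arrays it carried Cy3. The limma p-values, SEs and confidence intervals below do not measure the spread among these samples alone. The eBayes step draws each gene's spread toward a value pooled over all tested genes. The methods describe the samples as independent pools without saying whether they came from separate plants.

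Over the whole array, 21098 genes had signal above background in at least 1 group and were tested. Between 44.1% and 60.4% of spots were well above background in the RNAi samples, against 60.7% to 72.7% in the control samples. With limma at an adjusted p under 0.05, 3565 genes were higher and 3785 were lower in FaPRE1-RNAi receptacles. The probe named FaPRE1 on the array fell by 0.52 on the log2 scale (adjusted p = 0.015), and the gene model gene30478, also FaPRE1, had a log2 ratio of -0.33 that did not pass (adjusted p = 0.18). FaPRE2 (gene28320) fell by 1.15 (adjusted p = 0.0016). Whether these probes lie inside the fragment used for RNAi was not analysed here. The study also measured FaPRE1, FaPRE2 and FaPRE3 by quantitative PCR in RNAi pools and an empty vector control, and those values are not used here.

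Both DELLA genes rose and the gibberellin 2-oxidase fell in FaPRE1-RNAi receptacles, relative to the bulk of genes on each array. The DELLA GAI-like gene gene30958 was 7.59-fold higher, the DELLA GAIP-B gene gene06210 was 2.80-fold higher, and the gibberellin 2-oxidase gene31337 was 3.10-fold lower. All 3 genes passed the test, against 34.8% of all tested genes in either direction (16.9% higher and 17.9% lower). With 3 genes that the study had itself chosen for their change, that count says nothing beyond the values that follow.

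gene30958, the DELLA GAI-like gene, had normalized log2 signals of 13.84, 13.81 and 14.06 in the RNAi samples of replicates 1, 2 and 3, against 11.04, 11.07 and 10.82 in the control samples. The lowest RNAi sample stood well above the highest control sample, and the RNAi sample with the highest value shared its array with the control sample with the lowest. The means were 13.90 ± 0.14 in FaPRE1-RNAi receptacles and 10.98 ± 0.14 in control receptacles (SD, n = 3 each). The log2 ratios of the 3 arrays were 2.80, 2.73 and 3.24, with a mean of 2.92 (SE 0.14, 95% confidence interval 2.57 to 3.27) and an adjusted p of 0.00034 in limma. GAI was first described in Arabidopsis, where a form without the DELLA motif makes plants dwarf and insensitive to gibberellin.

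gene06210, the DELLA GAIP-B gene, had log2 signals of 11.93, 11.82 and 11.82 in the RNAi samples, against 10.44, 10.36 and 10.30 in the control samples. The groups did not overlap, and samples within a group lay closer together than for either of the other members. Its means were 11.85 ± 0.07 in FaPRE1-RNAi receptacles and 10.37 ± 0.07 in control receptacles (SD, n = 3 each). The array ratios were 1.49, 1.46 and 1.51 on the log2 scale, with a mean of 1.49 (SE 0.11, 95% confidence interval 1.23 to 1.75, adjusted p = 0.00085 in limma). These ratios had an SD of only 0.027, so the SE mainly reflects the spread pooled over genes. The name GAIP-B comes from a pumpkin phloem transcript, a DELLA messenger RNA of the kind that moves through the sieve tubes of that plant.

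gene31337, the gibberellin 2-oxidase gene, had log2 signals of 9.13, 8.97 and 9.19 in the RNAi samples, against 10.91, 10.66 and 10.61 in the control samples. Every RNAi sample was below every control sample. The means were 9.10 ± 0.12 in FaPRE1-RNAi receptacles and 10.73 ± 0.16 in control receptacles (SD, n = 3 each). The array ratios were -1.78, -1.69 and -1.41, with a mean of -1.63 (SE 0.12, 95% confidence interval -1.94 to -1.32, adjusted p = 0.0010 in limma). Signals did not overlap between the groups for any of the 3 members, and the same held for 50.7% of all tested genes. In tissue of this kind, fewer cells that express a gene and less of its RNA per cell cannot be told apart.

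**Figure D1:**
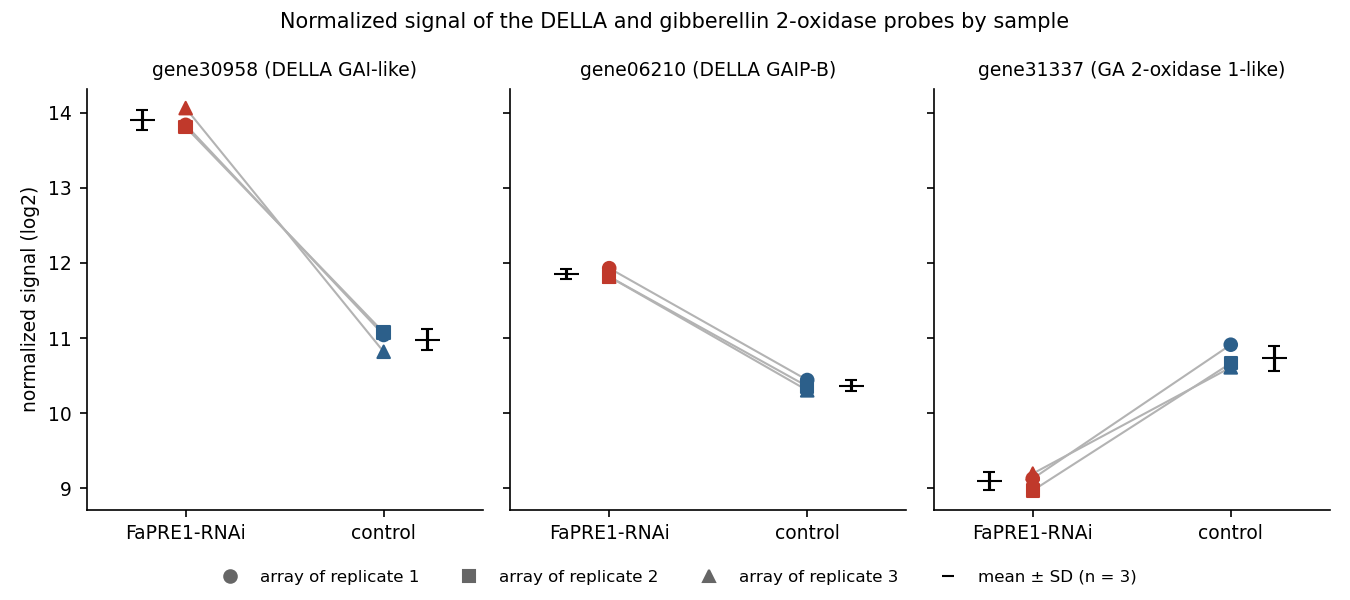
Normalized log2 signal (vertical axis) of the 3 members in each FaPRE1-RNAi sample (left of each panel) and each control sample (right), with a line joining the samples of an array and the mean ± SD of 3 samples beside the points. The RNAi samples sit at 13.81 to 14.06 for gene30958 and 11.82 to 11.93 for gene06210, above all control samples, and at 8.97 to 9.19 for gene31337, below all control samples.

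Among all ratios measured, gene30958 was near the top: 58 tested genes (0.275%) had a higher ratio. The other DELLA gene, gene06210, had 636 tested genes (3.01%) above it. The gibberellin 2-oxidase gene31337 had 267 tested genes (1.27%) with a lower ratio. The median ratio of all tested genes was -0.04, and 414 of them passed the test with a change beyond 4-fold. Of the members, gene30958 was the one past that size.

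**Figure D2:**
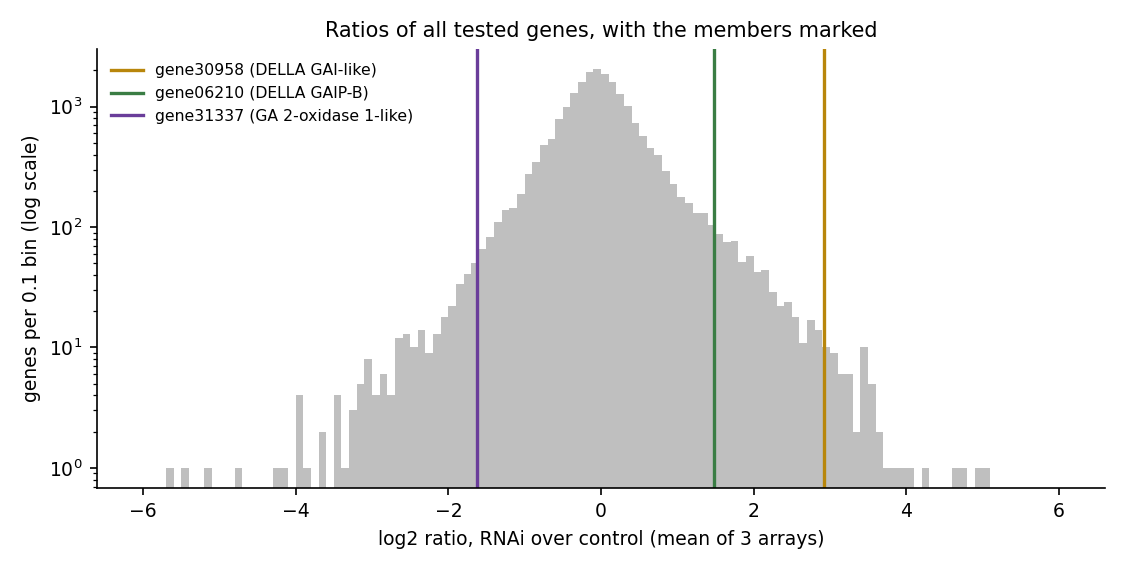
Number of genes (vertical axis, log scale) by log2 ratio of RNAi over control (horizontal axis, mean of 3 arrays) for the 21098 tested genes, with vertical lines at the members. The lines stand at 2.92 for gene30958, 1.49 for gene06210 and -1.63 for gene31337, all in the thin flanks of the distribution.

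The ratios of the members were then set against each other within each array, where a constant factor on the array's signals cancels but an intensity-dependent correction such as loess does not. The ratio of gene30958 exceeded that of gene06210 by 1.31, 1.27 and 1.73 log2 units on the 3 arrays, a mean of 1.44 ± 0.25 (SD, n = 3). The mean ratio of the DELLA pair exceeded that of the gibberellin 2-oxidase gene31337 by 3.93, 3.79 and 3.79, a mean of 3.84 ± 0.08 (SD, n = 3). Both differences had one sign on 3 of 3 arrays. For the DELLA pair against gene31337 that sign followed from the study's selection of these genes on the same samples, so it adds no support. The exact two-sided sign permutation test gave p = 0.25 for each, which is the smallest p that 3 arrays allow, so neither could pass.

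Each member was read by 1 probe, spotted 2 times on each array. All of these spots were well above local background in all 6 samples, and none was saturated or marked as an outlier. The largest gap between the spots of a probe, in log2 ratio, was 0.03 for gene30958, 0.17 for gene06210 and 0.30 for the dimmer gene31337. Cultivated strawberry carries several sets of chromosomes, and the copies of a gene on them, or close DELLA relatives, could share signal at a probe. That was not tested.

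The scanner signals before normalization show what the ratios were made from. With the local background taken off, gene31337 gave 186, 339 and 132 intensity units in the RNAi samples, against 4384, 1780 and 5621 in the control samples. gene30958 gave 5936, 12600 and 5004 units in the RNAi samples, against 4985, 2414 and 6528 in the control samples, and on the array of replicate 3 the RNAi sample was the dimmer one. gene06210 gave 1551, 2954 and 1032 units in the RNAi samples, against 3238, 1452 and 4594 in the control samples. For gene06210 the RNAi sample was brighter only on the array of replicate 2, where it carried Cy5. These signals include the dye and the overall brightness of each sample, which normalization removes on the assumption that most genes do not change.

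That assumption bears on the direction of gene06210. When each sample was scaled to 10 spike-in control probes, added to the labelling, in place of the bulk of genes, the median tested gene stood 2.09 log2 units lower in FaPRE1-RNAi receptacles. On that scale gene06210 had -1.55, -1.57 and -1.87 in the RNAi samples, against -1.45, -0.95 and -0.57 in the control samples, so that its mean difference turned to -0.66. The amount and mix of the spike-ins in each dye are not given in the sources used here, so these values take equal spike-in amounts in the samples of a dye for granted and have no test. gene30958 had 0.38, 0.51 and 0.39 in the RNAi samples, against -0.83, -0.23 and -0.06 in the control samples, a difference of 0.78. gene31337 had -4.61, -4.69 and -4.83 in the RNAi samples, against -1.01, -0.67 and -0.28 in the control samples, a difference of -4.05. The groups did not overlap for any member on this scale, and neither did they for the median tested gene. That median was -5.62, -5.78 and -5.87 in the RNAi samples, against -4.20, -3.65 and -3.19 in the control samples. The share of all genes without overlap was not computed on this scale, so the lack of overlap says nothing particular about the members. Relative to the median gene, the members stood at 2.88 for gene30958, 1.43 for gene06210 and -1.96 for gene31337, so the order of the 3 was as before. Centring each array on the median of all gene spots, dim ones included, without loess moved the median tested gene to -0.86 and left gene06210 at -0.05 (adjusted p = 0.94), gene30958 at 1.39 (adjusted p = 0.078) and gene31337 at -3.12 (adjusted p = 0.051), and limma called 0 genes of the array there (9061 at an unadjusted p under 0.05). Statements that a DELLA gene rose therefore mean relative to the other genes of the array.

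**Figure D3:**
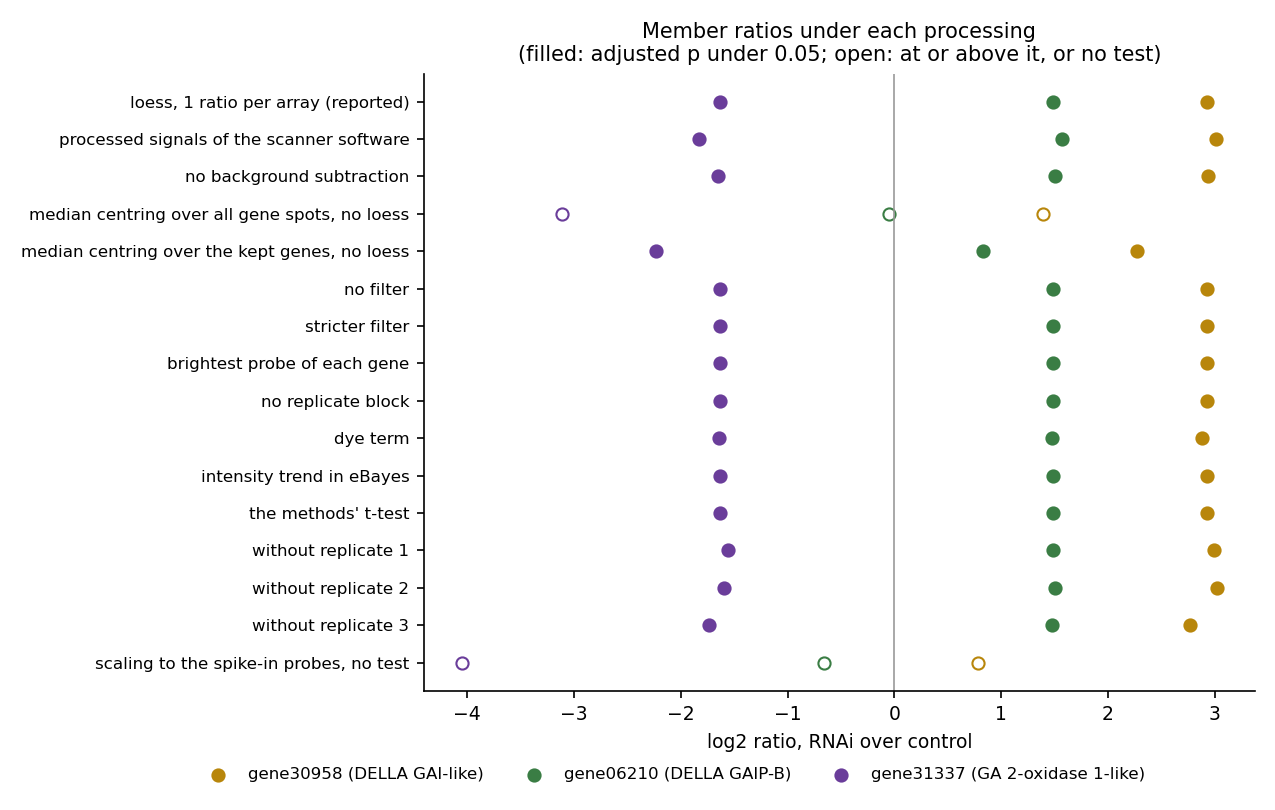
Log2 ratio of RNAi over control (horizontal axis) of each member under the reported processing (top) and 15 alternatives (rows below it), with filled points where the adjusted p was under 0.05 and open points where it was not or where no test was made. gene30958 stayed above 0 and gene31337 below 0 in every row, while gene06210 lay at -0.05 with median centring over all gene spots and at -0.66 with spike-in scaling.

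The other genes of the gibberellin pathway come from 14 genes whose descriptions name gibberellin, a DELLA protein, GID or GAMYB. Of the 14, 7 were bright enough to test, of which 4 rose, 2 fell and 1 did not pass, but 4 of these 7 are genes the study had selected on these samples. The 10 that stand in the unselected part of the study's table (gene00001 to gene01722) gave 3 tested genes, of which 1 rose, 1 fell and 1 did not pass. In that unselected part, 32.3% of 1055 tested genes passed, 16.5% higher and 15.8% lower. The median ratio of the 4 tested genes other than the members was 0.57, but these include gene26010, which the study had selected. For the 3 tested genes of the unselected part the median was -0.01, beside -0.04 for all tested genes.

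For synthesis, the 4 genes described as gibberellin 3-oxidases (gene01056, gene01058, gene01059 and gene01060), the enzymes that make the active hormone, were not well above background in any of the 6 samples. They had only a bound and no ratio is given. For inactivation, a second 2-oxidase, gene00852 (gibberellin 2-oxidase 8-like), went the other way from gene31337. Its log2 signals were 7.93, 8.23 and 7.80 in the RNAi samples, against 7.17, 6.80 and 6.52 in the control samples, with no overlap. Its ratio was 1.15 (SE 0.16, adjusted p = 0.0048), a 2.22-fold rise, and it was 0.19 on the spike-in scale, where the RNAi and control samples overlapped. In Arabidopsis the 2-oxidase numbered 8 acts on precursors of the hormone, whereas the one numbered 1 also takes active gibberellins. The ratios of the 2-oxidase genes were not tested against each other.

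Another DELLA gene of the list, gene01356 (DELLA RGL1-like), was well above background in none of the RNAi samples and in 1 of the control samples, and was not tested. The DELLA result thus rests on the members gene30958 and gene06210. The gene for the F-box protein that marks DELLA proteins for breakdown, gene00195 (GID2-like), had log2 signals of 10.38, 10.33 and 10.27 in the RNAi samples, against 10.48, 10.33 and 10.19 in the control samples. These groups overlapped, with a ratio of -0.01 (95% confidence interval -0.28 to 0.26, adjusted p = 0.96).

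Genes named for their response to gibberellin differed from each other. gene26010, a gibberellin-regulated (GASA) 6 gene that the study had selected, had log2 signals of 11.39, 11.51 and 11.38 in the RNAi samples, against 9.64, 7.88 and 7.48 in the control samples, and its ratio was 3.09 (SE 0.41, adjusted p = 0.0044). The control sample of replicate 1 stood apart from the other control samples here. gene00431 (GAMYB), a MYB regulator that acts downstream of DELLA proteins in cereal seed, had 7.41, 7.42 and 7.68 in the RNAi samples, against 7.64, 8.78 and 8.68 in the control samples. The groups overlapped, the control sample of replicate 1 was again nearest to the RNAi samples, and the ratio was -0.86 (SE 0.22, adjusted p = 0.031). That call was lost without replicate 2 (-0.61, adjusted p = 0.13) and without replicate 3 (-0.79, adjusted p = 0.13). FaGAST1, a strawberry relative of the gibberellin-stimulated GAST1 gene of tomato, had 12.35, 12.98 and 13.00 in the RNAi samples, against 11.23, 13.50 and 13.21 in the control samples. The groups overlapped, the control sample of replicate 1 was the lowest of all, and the array ratios of 1.12, -0.52 and -0.21 averaged 0.13 (adjusted p = 0.77). The remaining response genes, gene00710 (gibberellin-regulated 3-like) and gene01024 (gibberellin-regulated 14-like), were well above background in 1 RNAi sample and 2 control samples each and were not tested. For the members, in contrast to these response genes, the control sample of replicate 1 lay at most 0.30 from the other control samples.

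GRAS proteins outside the DELLA branch were also read. gene05757 (SHORT-ROOT-like), related to an Arabidopsis regulator of root cell layers and selected by the study, had 10.12, 10.10 and 9.72 in the RNAi samples, against 7.48, 7.54 and 7.51 in the control samples. It did not overlap, and its ratio was 2.47 (SE 0.13, adjusted p = 0.00041). gene01015 (SCARECROW 1), named for the partner of SHORT-ROOT in Arabidopsis, had 10.30, 10.19 and 10.09 in the RNAi samples, against 10.82, 10.63 and 10.79 in the control samples, and fell by 0.56 (adjusted p = 0.015), a call lost without replicate 3 (-0.49, adjusted p = 0.11). gene01184 (SCARECROW-like 18) was not well above background in any sample. With the processed signals gene01015 also lost its call (adjusted p = 0.068 in limma). Of this list of 3, 2 were tested, 1 rose and 1 fell, against 34.8% of all tested genes called in either direction. The gene that rose had been selected by the study, so these genes say little about whether GRAS genes rose together.

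**Figure D4:**
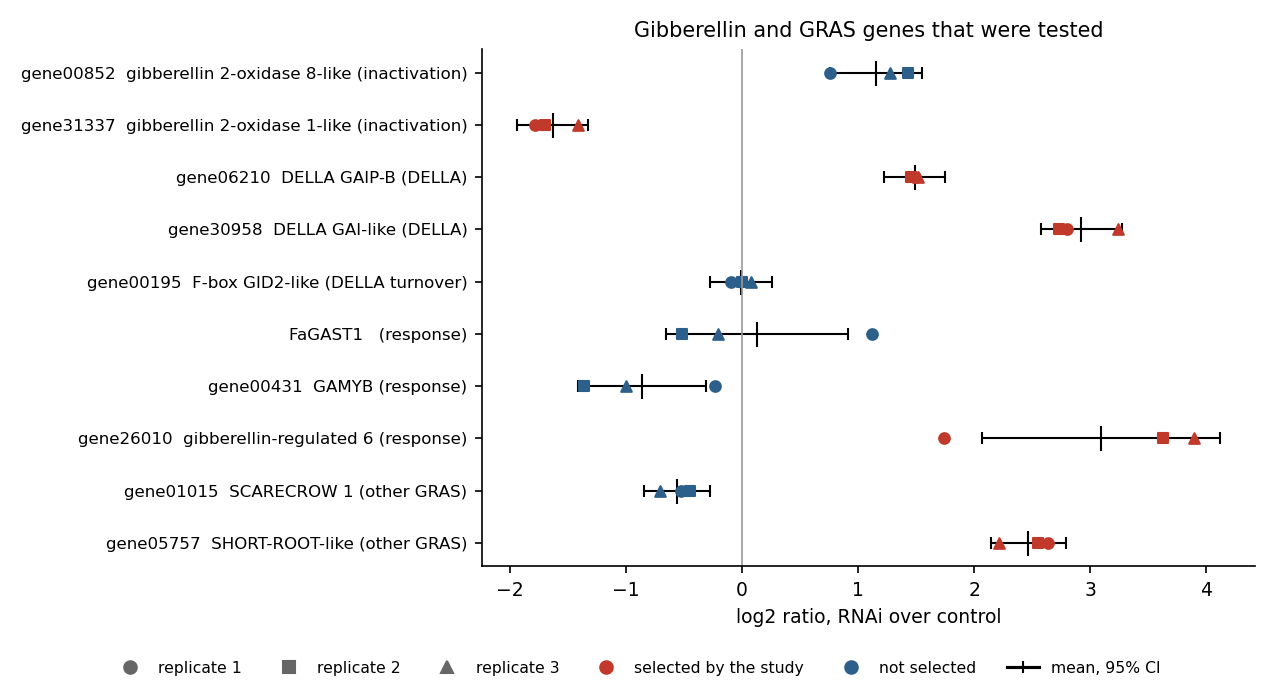
Log2 ratio of RNAi over control (horizontal axis) on each of the 3 arrays (points), with the mean and its 95% confidence interval, for the tested gibberellin and GRAS genes grouped by role. Red genes were selected by the study on these samples and blue ones were not. The members gene06210 and gene30958 lie to the right of 0 and gene31337 to the left, gene00195 lies at 0, and the point of replicate 1 stands apart for FaGAST1, gene00431 and gene26010.

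The genes whose 3 array ratios lay nearest to those of each member were looked up among 1401 other tested genes with a description, by the root mean square difference over the 3 arrays. For gene30958 they were gene23943 (histone-like) at 0.054, gene02315 (a heat shock protein with tetratricopeptide repeats) at 0.095 and gene23359 (histone, partial) at 0.12 log2 units, and 31 genes lay within 0.5. For gene06210 they were gene05176 (leucine-rich repeat extensin 6) at 0.051, gene09648 (an L-type lectin receptor kinase) at 0.069 and gene35024 (a rhamnosyltransferase) at 0.084, with 98 genes within 0.5. For gene31337 they were gene31679 (small ubiquitin-related modifier 1) at 0.11, gene32297 (IRK-interacting) at 0.14 and gene00122 (ABC transporter C family member 12-like) at 0.14, with 74 genes within 0.5. Of these 9 neighbours, gene00122 alone came from the unselected part. The selected genes had been chosen for their change in these samples, as the members had. No gibberellin gene was among the neighbours, but the members were left out of the search and only 4 other tested gibberellin genes could have appeared.

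Markers of other tissue and of ripeness moved along with the members. Of 7 genes for seed storage proteins and oleosins, typical of achenes, 6 rose and 1 did not pass (median ratio 3.45), and their summed log2 signal was 17.12 to 17.28 in the RNAi samples, against 13.31 to 13.81 in the control samples. Of 17 photosynthesis genes, 16 rose and 1 did not pass (median 1.77), with summed signals of 16.94 to 17.20 in the RNAi samples, against 15.33 to 15.65 in the control samples. Of 7 genes of the ripe receptacle, such as the pigment regulator FaMYB10 and the pectin-degrading polygalacturonase FaPG1, 7 fell (median -3.43), with summed signals of 15.09 to 16.01 in the RNAi samples, against 18.03 to 18.17 in the control samples. By the spot flags none of these marker genes was at background in any sample, so both ripe receptacle markers and achene markers were present in each group. The vicilin-like gene29934 was dim in the control samples, with log2 signals of 5.88, 6.83 and 6.37. The lists were mostly drawn from the study's selected genes. All 6 seed storage and oleosin genes that rose had been selected on these samples, so their rise is not independent evidence. The 1 oleosin gene of the unselected part, gene01466, had a ratio of 0.40 (adjusted p = 0.21). Of the 5 unselected photosynthesis genes, 4 rose, and the other photosynthesis genes had been selected. Beside these counts, 16.9% of all tested genes were called higher and 17.9% lower. In the unselected part the shares were 16.5% and 15.8%. All 7 ripe receptacle genes had been selected by the study as lower in these same samples. Their fall was thus fixed in advance, and that list holds no unselected gene. What part achene content, green tissue or ripeness had in the values of gene30958, gene06210 and gene31337 was not tested.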

How the data were processed

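RNA of 6 samples was measured on 3 Agilent arrays of 2 colours. The authors deposited scanner output made with Agilent Feature Extraction 10.7 (per the labels), 1 file per array. Per the file headers, the median spot signals and median local backgrounds are intensity values without correction, and the processed signals are intensity values after background subtraction and dye normalization. The deposited files hold other columns of spot flags, used for background, saturation and outlier calls. The authors' log ratio column and its p-values were not used. Mean signals were not used, so median signals took their place.

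The limma package (version 3.58.1, R 4.3.3) was used for all fits. After normexp background correction (offset 50), ratios were normalized by loess within each array (control and outlier spots at weight 0), turned to RNAi over control, and averaged over spots and probes. A probe needed at least 50% of its spots to be well above background, in the channel of 1 group at least, on each of the 3 arrays. This left 21221 of 35335 probes and, after 3 genes without a usable spot on some array were left out, 21098 genes. lmFit and eBayes were run on 1 ratio per array, with Benjamini-Hochberg adjustment over these genes and calls at an adjusted p under 0.05. Per-sample signals come from scaling between arrays (Aquantile), and the number of arrays limits their precision. Replicate numbers pair samples because those samples share an array. Deviations from group means correlated across genes, which are not independent, at 0.43, -0.04 and 0.17 for the 3 numbers. All arrays came from 1 slide and 1 scan, so no such batch could be tested. The fit was first tested on simulated data in which chosen genes had been changed.

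Spike-in scaling took the log2 background-subtracted signal minus the mean of 10 control probes (35 spots each), with group differences taken within each dye and averaged. Other settings covered the signal (processed, or without background subtraction), the centring (medians in place of loess), the filter (none or stricter), the model (without the array block, with a dye term, with an intensity trend, or the methods' t-test), the brightest probe of a gene, and omission of each replicate.

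The text names the members, all genes of the gibberellin and other GRAS lists, FaGAST1, the FaPRE1 probes and FaPRE2, and for each member the 3 nearest described genes. Marker genes were named as examples. The members and lists were chosen with earlier results of these data known. Gene descriptions are those of the study's supplementary tables, of which the unselected part covers 1679 genes at hand. Probe sequences and genome positions were not analysed here.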

Additional observations from a re-analysis of the deposited data

How the results depend on the processing

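Leaving aside median centring over all gene spots and spike-in scaling, each member kept its direction and its call under the 13 other settings: gene30958 between 2.27 and 3.02 (adjusted p 8.7e-09 to 0.010), gene06210 between 0.83 and 1.57 (adjusted p 0.00012 to 0.026) and gene31337 between -2.23 and -1.55 (adjusted p 1.5e-08 to 0.017). Under the filter settings, the brightest probe, the intensity trend, the methods' t-test and the model without the array block, a member's ratio cannot change. The ratios stay at 2.92, 1.49 and -1.63 there by construction, and only the adjusted p could move. Without the replicate block of the shared array no member lost its call, while the GAMYB gene gene00431 did (adjusted p = 0.057 in limma).

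Median centring over all gene spots left gene06210 without a call at -0.053 (adjusted p = 0.94 in limma), which is 0.81 above the median gene there. It also took the calls of gene30958 (1.39) and gene31337 (-3.12), with 0 genes called on the array, 0 of the gibberellin list and 0 of the other GRAS list. Spike-in scaling put the members at 0.78, -0.66 and -4.05 and the DELLA pair 4.12 above gene31337, as did the processed signals (4.12), which shifted the median gene to -0.13 and called 1 of the other GRAS genes. Leaving out 1 replicate gave 2.76 to 3.02 for gene30958, 1.474 to 1.501 for gene06210, -1.74 to -1.55 for gene31337, 1.29 to 1.52 and 3.79 to 3.86 for the 2 differences, 5 to 6 gibberellin genes and 1 to 2 other GRAS genes called. Over all genes, 3458 were called without replicate 3, 4304 without replicate 2 and 7125 without replicate 1, against 7350 with all 3. The FaPRE1 probe lost its call without replicate 2 (adjusted p = 0.056), without replicate 3 (0.10), with the processed signals (0.060) and in the methods' t-test (0.092). The methods' t-test called 4934 genes after Benjamini-Hochberg and kept all 3 members. Causes of these changes were not tested.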

Other observations

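A probe named FaGRAS1 on the array, found by its name after values were seen, had log2 signals of 8.38, 8.08 and 8.28 in the RNAi samples, against 8.63, 8.75 and 8.94 in the control samples. The groups did not overlap, and the ratio of -0.52 (SE 0.13, adjusted p = 0.030 in limma) lost its call without replicate 2 (adjusted p = 0.12) and without replicate 3 (adjusted p = 0.17).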
